A study of Acipenser sturio with 24 samples.

Results

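The components described here are 48 of 275906 assembled RNA components of sturgeon embryos that were nearly absent from the egg to early neurula, stood at 3 or more in both mid neurula libraries and were still present in late tailbud embryos. They were chosen from the deposited values: below 1 in each of the 11 libraries of stages 0 to 13.5, at least 3 in both libraries of stages 15 and 16, below 300 in every library, and with a mean over stages 32, 35 and 36 of at least 0.25 times the mean over stages 15 and 16. A limit of 300 components was not reached. The steep appearance at stage 15 and the presence at stages 32 to 36 are therefore properties of the choice, and are given below as description with no test.

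Whole-embryo RNA was sequenced at 24 stages, named by the Nieuwkoop-Faber (NF) system that was made for Xenopus frogs, each stage being 1 library. The embryos are labelled as Bester hybrids, crosses of beluga (Huso huso) and sterlet (Acipenser ruthenus), raised in a dilute saline (MMR) without further treatment, whereas the organism field names Acipenser sturio. In this report cleavage-blastula is NF 0, 4, 8 and 9, gastrula NF 10, 10.5, 11, 12 and 12.5, early neurula NF 13 and 13.5, mid neurula NF 15 and 16, late neurula NF 18, 19 and 20, early tailbud NF 22, 23, 24, 26 and 29, and late tailbud NF 32, 35 and 36. Numbers of embryos or clutches per library are not labelled, and libraries of a window are different stages, so the spread within a window includes development.

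In a vertebrate embryo the neurula stages are those at which the neural plate folds and closes into the neural tube, neural crest forms at its edge, and the mesoderm beside it divides into somites. The early embryo runs on RNA stored in the egg. RNA that is first seen at neurula stages is commonly made by the embryo itself, often in one forming tissue. In whole-embryo RNA a change in the number of cells of a type and a change in the RNA each cell holds cannot be told apart.

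The values were treated as abundances per component, normalized before deposit, and not as read counts. Their unit is not stated, and only 0.458% of the values above 0 are whole numbers. Summed values ran from 342953 to 679612 per library. Absolute depth is unknown, but low values move in steps that show what 1 read is worth, and reads per unit of value ran over a 5.42-fold range, from 0.628 at NF 29 to 3.41 at NF 4, relative to NF 36. The libraries also fell into 2 unlabelled sets, 17 in the larger and 7 in the smaller (NF 0, 13, 16, 19, 24, 29 and 36), by residuals of 1283 abundant other components about a stage curve. The files pair no component with a gene name and hold no sequence, so no gene, tissue marker or sequence is given.

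**Figure D1:**
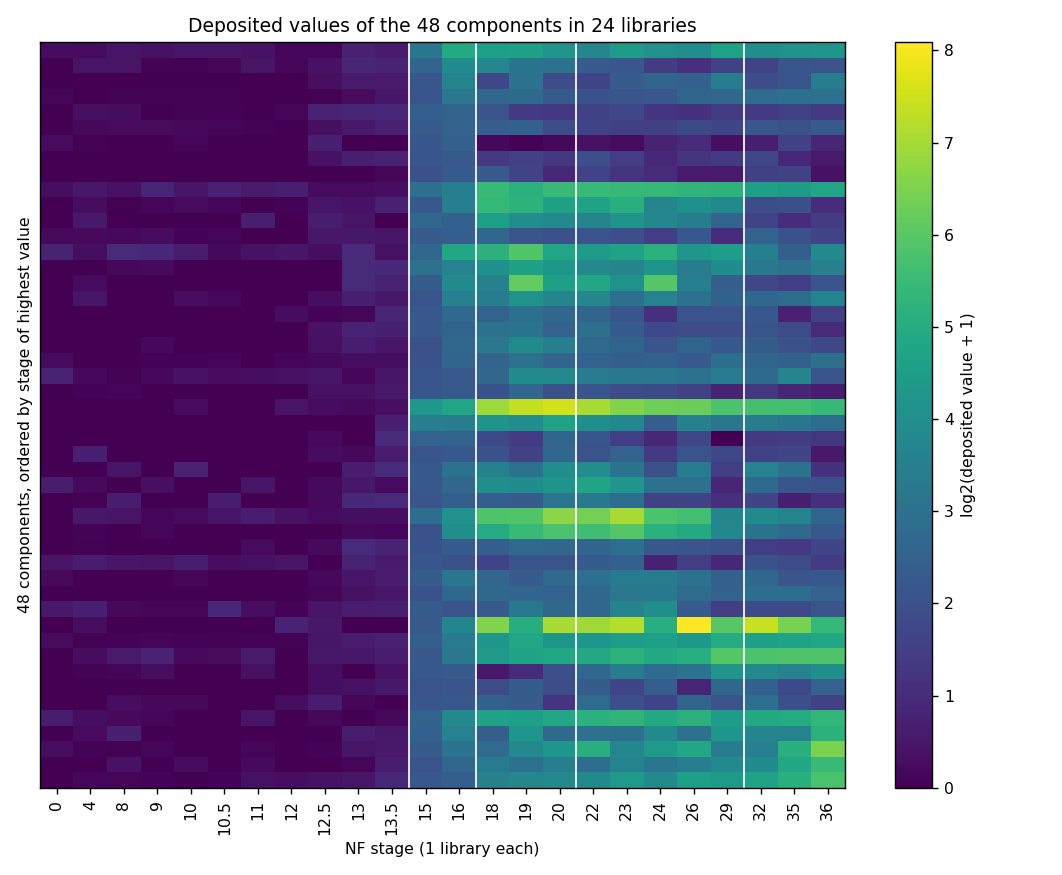
Heat map of log2(deposited value + 1) for the 48 components (rows, ordered by the stage of their highest value) in 24 libraries (columns, NF stage); white lines separate the windows before NF 15, NF 15 and 16, NF 18 to 20, NF 22 to 29 and NF 32 to 36. All rows are dark through NF 13.5; 9 rows are highest in mid neurula, 18 in late neurula, 15 in early tailbud and 6 in late tailbud.

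The limits of the choice fix a step at mid neurula in each library set, and only its size is described. Within the larger set the 48 components summed to 217 at NF 15 and 23.1 at NF 13.5, a ratio of 9.36. Within the smaller set they summed to 406 at NF 16 and 19.1 at NF 13, a ratio of 21.2. Most entered only just above the level the rule asks for. The median value at NF 15 was 3.67, the 25th and 75th percentiles were 3.36 and 4.56, and 29 of 48 stood below 4. The highest value at NF 15 was 18.9, in the component that also had the highest mean of NF 15 and 16, 22.5, against 3.26 for the lowest member.

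The first 3 limits had components close on both sides, and the ceiling did not. The highest value of a member before NF 15 was 0.99, and the nearest component kept out by that limit reached 1.0. The lower of the NF 15 and NF 16 values was 3.01 in the member nearest to the limit and 2.92 in the nearest component outside it. The ratio of the late tailbud mean to the mid neurula mean was 0.255 in the member nearest to the limit and 0.242 in the nearest component outside it. The highest member value was 271, and the 2 components kept out by the ceiling reached 550 or more.

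Traces of these components were present before mid neurula and increased towards it. The 48 values summed to between 4.17 and 6.81 in each library of NF 0 to 12, then to 10.6 at NF 12.5, 19.1 at NF 13 and 23.1 at NF 13.5. The median component stood at 0.20, 0.37 and 0.48 in those last 3 libraries and at or below 0.055 in the earlier ones. No member was at 0 in all 11 libraries, and 8 were at 0 in all libraries of NF 0 to 12. In 35 of 48 the highest value before NF 15 fell at NF 12.5, 13 or 13.5. At NF 12.5 9 members were at 0 and at NF 4 17, libraries with 3.17 and 3.41 reads per unit, and at NF 12 31, with 1.12. Stage and depth both vary over these libraries, and their part in the counts of zeros was not tested.

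From NF 15 to NF 16 the level increased further in 44 of 48 components, by a median ratio of 1.51, and 15 at least doubled. These 2 libraries belong to different sets. After scaling, which divided NF 15 by 0.612 and NF 16 by 0.678 and so raised both, 37 of 48 were higher at NF 16 and the median ratio was 1.36.

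**Figure D2:**
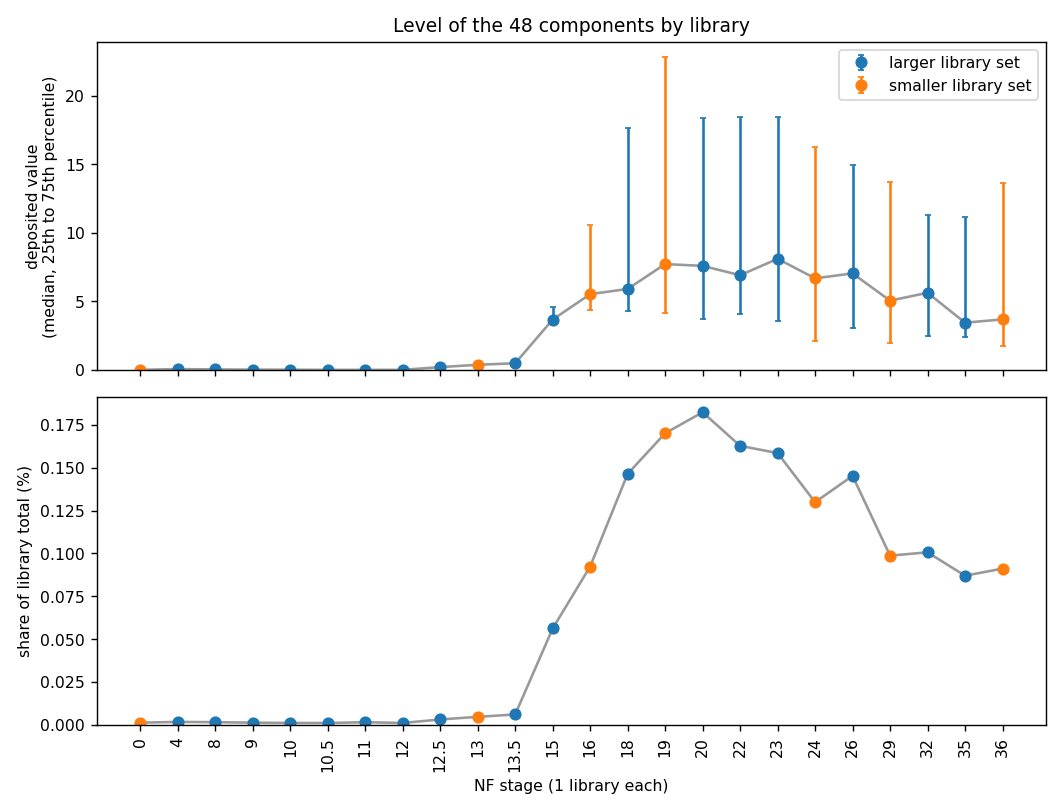
Upper panel: median deposited value of the 48 components in each library, with bars from the 25th to the 75th percentile; lower panel: their summed value as a percentage of the library total. Both are plotted by NF stage, with 17 libraries of the larger set in blue and 7 of the smaller set in orange; the share is 0.0562% at NF 15, is highest at NF 20 with 0.182%, and is 0.0911% at NF 36.

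By their sum the components stood highest between late neurula and early tailbud. Their share of the library total was 0.0562% at NF 15 and 0.0924% at NF 16. It was 0.146%, 0.170% and 0.182% at NF 18, 19 and 20. In early tailbud it was 0.163%, 0.159%, 0.130%, 0.145% and 0.0987% at NF 22, 23, 24, 26 and 29, and in late tailbud 0.101%, 0.0870% and 0.0911%. The late tailbud libraries and NF 29 were thus all below the late neurula libraries and near NF 16. A few components carried much of these sums: the 3 most abundant held 44.7% of the member sum at NF 20 and 48.2% at NF 26. The median value, which they do not set, was 5.91, 7.72 and 7.59 in late neurula, lay between 5.05 and 8.11 in early tailbud and was 5.62, 3.45 and 3.68 in late tailbud.

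The components spread apart after their onset. The 25th to 75th percentiles spanned 3.36 to 4.56 at NF 15 and 3.72 to 18.4 at NF 20. On deposited values the ratio of the late neurula mean to the mid neurula mean had a median of 1.49. It was 2 or more in 20 components and 0.5 or less in 4, with extremes of 10.6 and 0.0274. The scale factors were 0.612 and 0.678 in mid neurula and 0.806, 0.908 and 0.994 in late neurula, so scaling lowers these ratios. The rule also set a floor under the mid neurula mean. The order of the members at NF 15 was less like later orders than that at NF 16 or in late neurula. The Spearman correlation across the 48 members was 0.511 between NF 15 and 16, 0.479 between NF 15 and 18, 0.894 between NF 18 and 20 and 0.928 between NF 20 and 22. With the libraries of NF 22 to 36 it ran from 0.317 to 0.451 for NF 15, from 0.494 to 0.644 for NF 16 and from 0.470 to 0.928 for NF 18, 19 and 20. For NF 36 alone NF 16 gave 0.528, between the 0.470 of NF 18 and the 0.535 of NF 20. These are descriptions across components, which are not replicates; they share their libraries, and the limit of 3 compresses the range at NF 15 and 16.

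Presence between the stages used for the choice was common but not complete. A value of 1 or more in all 8 libraries of NF 18 to 29 was held by 38 of 48 components, and 27 stood at 3 or more in all of them. The other 10 were below 1 in at least 1 library. At NF 29, where a unit of value stood for the fewest reads, 7 stood below 1, 1 of them at 0.

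Of those 10, 1 was nearly lost right after its appearance. It stood at 3.49 and 4.53 at NF 15 and 16, then at 0.14, 0.06 and 0.13 at NF 18, 19 and 20. It stayed between 0.17 and 0.94 through early tailbud and was 0.60, 2.0 and 0.83 at NF 32, 35 and 36. For this component the label of lasting presence goes against the values of late neurula, where all 3 libraries were below 1. It was also the only member that the filter on low values left out of the tests.

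The window test compared early tailbud (5 libraries) with late neurula (3 libraries). Apart from the ceiling, no limit of the choice used these 8 libraries. The test was fitted with limma over the 41376 components that reached 1 in 3 or more of them, on log2(scaled value + 1). The choice can still bear on its direction. A minimum was set in mid neurula, next to late neurula, while a lower level was enough in late tailbud. The rule can thus favour lower values in early tailbud, and its part in the changes below was not tested. The window test was run on 47 of the 48 members. Most stood lower in early tailbud, but none passed the threshold. The log2 change was negative in 36 and positive in 11 of the 47, with a median of -0.48 (median SE 0.335), against a median of 0.02 over all components tested. Under 4 scalings the median ran from -0.54 to -0.28 in the members and from -0.05 to 0.14 over all components. At an adjusted p of 0.05, limma called 0 of 47 members, where 0.15% of all components were called, 0.0918% as higher and 0.058% as lower (38 and 24 components, and 60 and 20 on values as deposited). At an unadjusted p under 0.05 there were 13 members, 12 lower and 1 higher, that is 27.7% of the members against 16.98% of all components. Values of the windows did not overlap in 6 members, 3 higher and 3 lower, where 12.4% of all components had no overlap. The count of 0 depended on NF 22 and on the library sets: 4 members (8.51%) were called without NF 22, 5 (10.6%) with NF 22 counted as late neurula, and 3 (6.38%) with the library set as a term. In the same settings 2.59%, 2.71% and 0.962% of all components were called, also above 0.15%. Within the larger library set alone 0 of 47 members were called, and 0 of all 41376 components.

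A linear trend over the same 8 libraries in stage order, a test added after the window result was seen, uses the order within the windows. The choice can bear on its direction in the same way. Of 47 members, 15 passed limma's adjusted p of 0.05, 14 that fell over NF 18 to 29 and 1 that rose. Among all 41376 components 13.3% passed, 5.79% as falling and 7.52% as rising. The slope was negative in 38 of 47 members, with a median of -0.13 log2 units per sampled stage, against -0.01 over all components. The 14 that fell had slopes from -0.41 to -0.20 per stage, with adjusted p from 0.00110 to 0.0485. On deposited values, 11 of these 14 had their highest value by NF 20, and 11 had a late tailbud mean below their mid neurula mean. Among all 48 members 9 were highest in mid neurula and 18 in late neurula. In 19 of the 48 the late tailbud mean was above the mid neurula mean, again on deposited values. Scaling raises the mid neurula values and lowers those of late tailbud, so fewer members can then stand above. The scaled median of the members was 8.15 at NF 16 and 4.55, 2.85 and 2.59 at NF 32, 35 and 36. At NF 15 it lay between those of NF 16 and NF 32. A falling call favours an early highest value, and the rule used the means of late tailbud and mid neurula. Both counts for the 14 are therefore description only. Among single libraries left out NF 29 moved the count furthest: without it 6 members (12.8%) passed, 5 falling and 1 rising, where 6.32% of all components passed. Within the 5 libraries of the larger set 3 members (6.38%) passed, 2 falling and 1 rising, a share near the 4.81% of all components. With column totals as the scale 9 of 47 passed (19.1%), where 12.2% of all components did. Without a filter 5 of 48 passed (10.4%), where 0.935% of all components did. With a filter of at least 5 in 3 libraries 12 of 36 passed (33.3%), a share near the 30.3% of all 9857 components then tested. By direction, 11 members (30.6%) fell, where 16.6% of those components fell, and 1 (2.78%) rose, where 13.8% rose. The median slope of the members was negative in each of these settings. The scale also moved the split: on values as deposited 8 members fell and 2 rose, where 2.83% of all components fell and 9.84% rose, and with a trimmed mean 16 fell and 1 rose, where 6.69% fell and 4.67% rose.

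**Figure D3:**
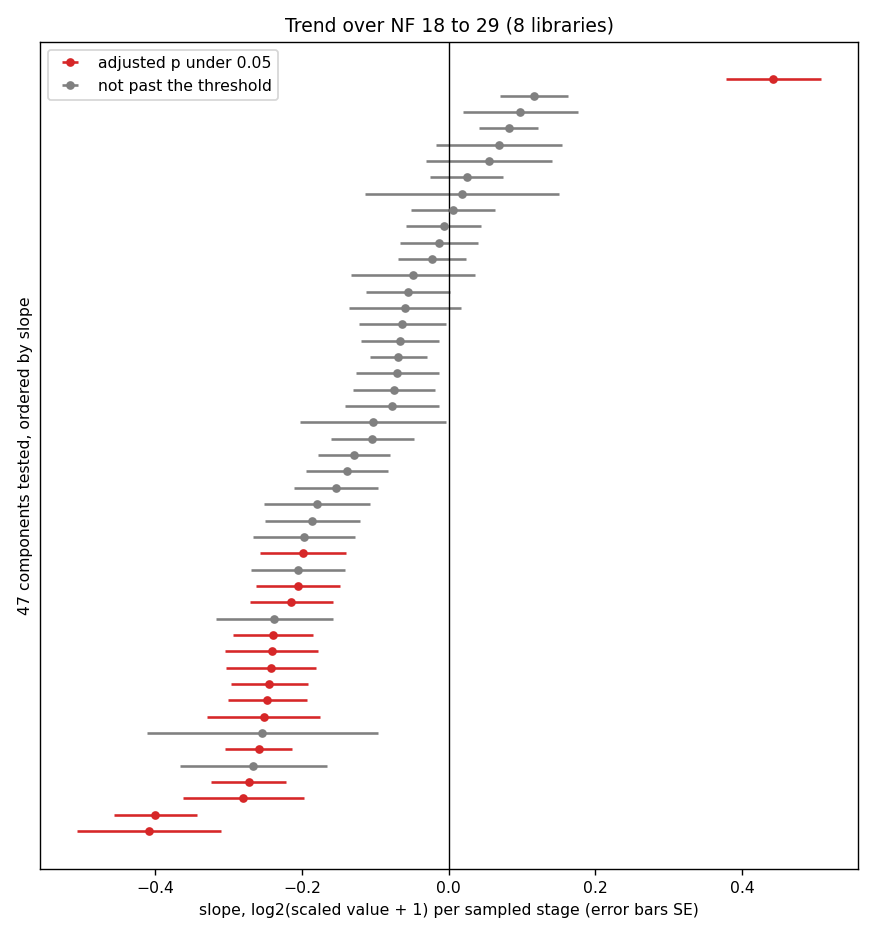
Slope of log2(scaled value + 1) per sampled stage over the 8 libraries of NF 18 to 29 for the 47 components tested, ordered from highest to lowest, with bars of 1 SE. Red points passed limma's adjusted p of 0.05, 1 above 0 and 14 below; the grey points did not pass.

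comp263238_c1 had the highest change between the windows. It stood at 5.52, 9.52, 6.17, 7.56 and 17.6 in the early tailbud libraries (NF 22, 23, 24, 26 and 29), against 0.47, 0.96 and 2.96 in the late neurula libraries (NF 18, 19 and 20). All early tailbud values exceeded all late neurula values, and the mid neurula values of 3.72 and 4.00 lay above all 3 of late neurula. The means were 9.28 ± 4.91 (SD, 5 libraries) in early tailbud and 1.46 ± 1.32 (SD, 3 libraries) in late neurula. The log2 change was 1.97 (SE 0.384), which missed the threshold (limma adjusted p = 0.0641). It passed with the library set as a term (limma adjusted p = 0.0456) and without NF 22 (limma adjusted p = 0.0252), and its adjusted p ran from 0.0252 to 0.403 over the alternatives. The slope was 0.44 per stage (SE 0.0650, limma adjusted p = 0.00132), a rise over NF 18 to 29 from a dip that followed its onset. This component and the other named ones were picked by their change over the same 8 libraries, so slope and change are not independent. In late tailbud comp263238_c1 stood at 13.6, 11.0 and 15.0.

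comp269436_c0 had the second highest change, with values that scattered widely. It stood at 32.5, 12.3, 19.5, 27.8 and 9.87 in early tailbud, against 6.11, 13.0 and 18.0 in late neurula. The windows overlapped, and the log2 change of 0.47 (SE 0.405) did not pass (limma adjusted p = 0.593), nor did the slope of 0.05 (SE 0.0861, limma adjusted p = 0.722). With NF 22 counted as late neurula the change was -0.08, and without NF 18 the slope was -0.05, so its direction is not settled. Its late tailbud values were 10.5, 34.4 and 89.7, the last the highest value of any member at NF 36.

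comp256830_c0 had the lowest change. It stood at 3.96, 3.60, 1.73, 1.13 and 2.01 in early tailbud, against 12.4, 7.88 and 7.10 in late neurula. All early tailbud values were below all late neurula values, and its highest value, 14.4, was at NF 16. The means were 2.49 ± 1.23 (SD, 5 libraries) in early tailbud and 9.11 ± 2.83 (SD, 3 libraries) in late neurula. The log2 change of -1.75 (SE 0.353) missed the threshold (limma adjusted p = 0.0677), and the slope of -0.40 per stage (SE 0.0566) passed it (limma adjusted p = 0.00110). The change passed with the library set as a term (limma adjusted p = 0.0466), without NF 22 (0.0213) and with NF 22 counted as late neurula (0.0371), and its adjusted p ran from 0.0213 to 0.410 over the alternatives. In late tailbud the values were 2.15, 3.45 and 3.23, close to those of early tailbud.

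comp268286_c0 had the second lowest change. It stood at 5.97, 5.09, 3.36, 5.12 and 3.73 in early tailbud, against 8.19, 13.2 and 10.0 in late neurula, again with no overlap. The means were 4.65 ± 1.08 (SD, 5 libraries) in early tailbud and 10.5 ± 2.55 (SD, 3 libraries) in late neurula. The log2 change was -1.21 (SE 0.263, limma adjusted p = 0.0748), and the component fell over NF 18 to 29 with a slope of -0.25 (SE 0.0536, limma adjusted p = 0.0104). Between the windows it too passed in those 3 settings (limma adjusted p = 0.0476, 0.0325 and 0.0494 in the same order), with a range of 0.0325 to 0.435 over the alternatives. Within the larger library set alone the slope was -0.20 and did not pass (limma adjusted p = 0.109), and without a filter its adjusted p was 0.065. Its late tailbud values were 4.20, 2.99 and 2.35.

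**Figure D4:**
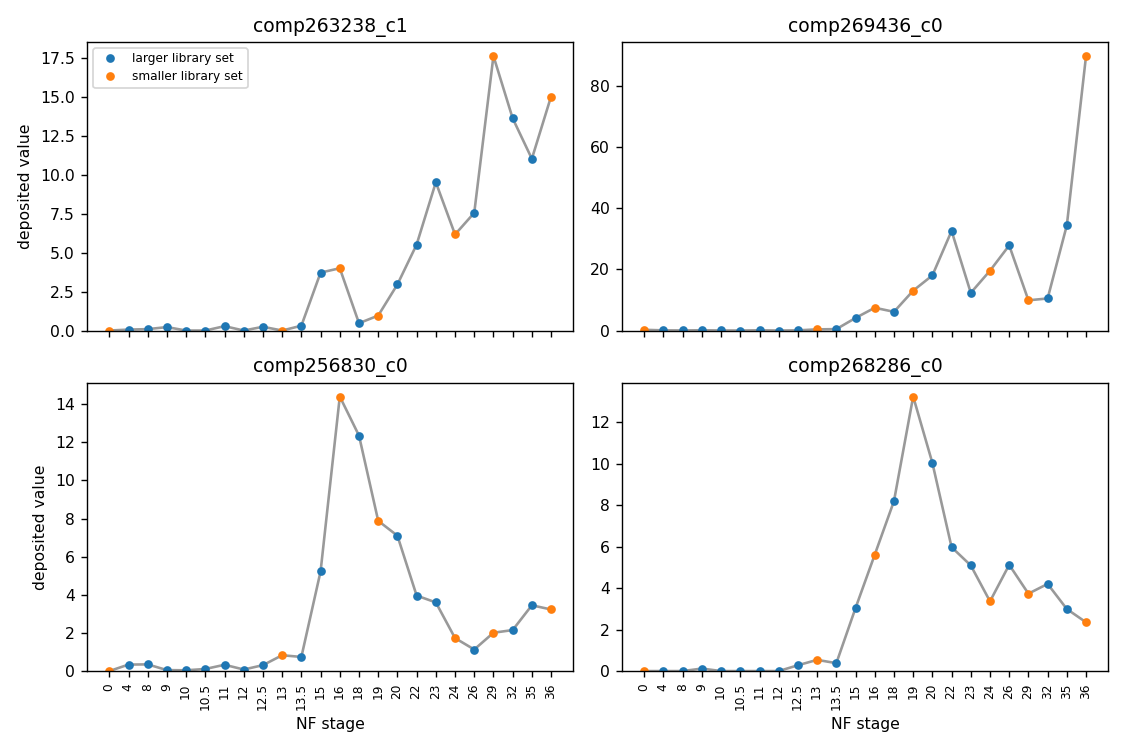
Deposited values of 4 components in all 24 libraries by NF stage, larger library set in blue and smaller set in orange. comp263238_c1 dips to 0.47 at NF 18 and reaches 17.6 at NF 29, comp269436_c0 reaches 89.7 at NF 36, and comp256830_c0 and comp268286_c0 are highest at NF 16 and NF 19 and lower afterwards.

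Further members, described here without a test and chosen after their values were seen, show the range of courses. The most abundant member of late neurula stood at 18.9 and 26.1 at NF 15 and 16 and at 119, 163 and 188 at NF 18, 19 and 20. From there each later library was lower than the one before: 130.0, 92.6, 77.8, 74.9 and 55.2 in early tailbud and 51.2, 49.1 and 42.2 in late tailbud. It was among the 14 that passed as falling.

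A second pattern was a higher level in late tailbud than in late neurula, although 36 of 47 members stood lower in early tailbud than in late neurula. On deposited values the late tailbud mean was at least 2 times the late neurula mean in 7 of 48 members and at most 0.5 times in 19. The median ratio was 0.636. Scaling divides the late tailbud libraries by 1.24, 1.21 and 1.42 and the late neurula libraries by 0.806, 0.908 and 0.994. It lowers each of these ratios, so fewer members can reach 2. The rule used the late tailbud means, and the share over all components was not computed. The 7 include comp263238_c1, comp269436_c0 and the component that was nearly lost, whose means were 1.14 in late tailbud and 0.11 in late neurula. Another of the 7 stood at 10.4, 12.5 and 13.0 in late neurula, between 13.6 and 22.4 in early tailbud and at 24.2, 34.5 and 53.5 at NF 32, 35 and 36. A further one stood at 19.6, 24.5 and 27.2 in late neurula, between 28.5 and 61.3 in early tailbud and at 54.3, 57.1 and 56.4 in late tailbud, with its highest value at NF 29. The highest value over all 24 libraries was at NF 36 in 5 members. Each of these late values rests on single libraries, and NF 36 is of the smaller set while NF 32 and 35 are of the larger.

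On deposited values, other members held a narrower range from late neurula on, after a change within mid neurula or from mid to late neurula. One stood at 4.5 and 9.24 at NF 15 and 16, then at 18.4, 27.3 and 18.3 in late neurula, between 18.0 and 30.2 in early tailbud and between 22.4 and 27.6 in late tailbud. Another stood at 8.03 and 29.96 at NF 15 and 16, then between 17.8 and 23.5 in late neurula, between 12.4 and 24.6 in early tailbud and between 15.4 and 17.7 in late tailbud. In both, the deposited ranges of the last 3 windows overlapped or nearly met. Scaling raises the late neurula values and lowers those of late tailbud, so this holds for deposited values only.

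Single members, picked after their values were seen, alternated with the library sets. The member with the highest value of all stood at 31.5, 32.7, 62.5 and 40.8 in the smaller-set libraries NF 19, 24, 29 and 36. In the larger set it stood at 92.6, 132, 121, 146, 271, 171 and 86.6 at NF 18, 20, 22, 23, 26, 32 and 35. Every smaller-set value lay below every larger-set value of these stages. Another member went the other way at NF 19, 24 and 29, with 17.8, 13.0 and 17.8, where NF 18, 20, 23, 26 and 32 gave 4.48, 5.87, 6.98, 7.12 and 11.9. At NF 19, 24 and 29, 1 of 48 members stood at least 2-fold below its larger-set neighbours each time, on the scaled value + 1 scale, where 1.57% of all components did. Likewise 1 of 48 stood at least 2-fold above each time, where 0.524% of all components did. The median member departed from its neighbours by 0.15, -0.02 and -0.01 log2 units at these 3 stages. By any amount, 22.9% of the members were higher at all 3 stages and 18.75% lower, against 27.5% and 18.76% of all components. The part of the sets in the courses of single members was not tested.

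Related identifiers give a further view that the choice did not use. The identifiers end in a suffix (_c0, _c1 and so on). From the form of the names it was taken to separate parts of one assembly graph, though the sources used here do not name the assembler. On that reading the 48 members came from 47 graphs. The 2 members of one graph had like courses, with highest values of 131 and 61.6 at NF 23 and late tailbud means of 10.1 and 5.70. Another 75 components outside the group shared a graph with a member, in 31 of the 47 graphs. Of these 75, 28 never reached 1, and 26 reached 3 in some library. Before NF 15, 22 of them, in 13 graphs, had stood at 1 or more, and 14, in 10 graphs, at 3 or more. For those 13 graphs a related component was thus present earlier than the member. Parts of a graph can share sequence, and how reads were divided between them was not tested, so the absence of a member before NF 15 is uncertain as a statement about the whole graph.

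A pair of comparison groups places these courses. Of the 91 components that met the onset limits and the ceiling, 48 (52.7%) met the limit for late tailbud and 43 did not. The 48 lasting members had medians of 3.67 and 5.53 at NF 15 and 16, and the 43 others 4.72 and 8.05. At NF 20 the medians were 7.59 and 4.94, at NF 23 8.11 and 2.04, and at NF 26 7.04 and 0.92. The lasting members thus had the higher median from late neurula on, before the late tailbud stages used to separate the groups. The limit for late tailbud is set against the mean of NF 15 and 16, so a higher mid neurula value makes it harder to meet. In early tailbud against late neurula the median log2 change was -0.48 in the 47 lasting members tested and -1.23 in the 39 others tested. Their difference has no test here, since the ratio of late tailbud to mid neurula means separated the groups and neighbouring stages resemble each other.

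The other group was 122 components chosen by the same limits applied earlier, with onset at NF 12.5, 13 and 13.5. In these the same trend over NF 18 to 29 was called as falling in 26 and as rising in 2 of 121 tested, against 14 and 1 of 47 for the mid neurula members. The median slopes were -0.13 for the members of mid neurula and -0.11 for the earlier ones. Beside the 5.79% of all components called as falling, the share was 29.8% in the mid neurula members and 21.5% in the earlier ones. That background depends on the filter. Among components with at least 5 in 3 libraries, 16.6% of all and 30.6% of the mid neurula members were called as falling. The share at that filter was not computed for the earlier group. The difference between the 2 groups was not tested.

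**Figure D5:**
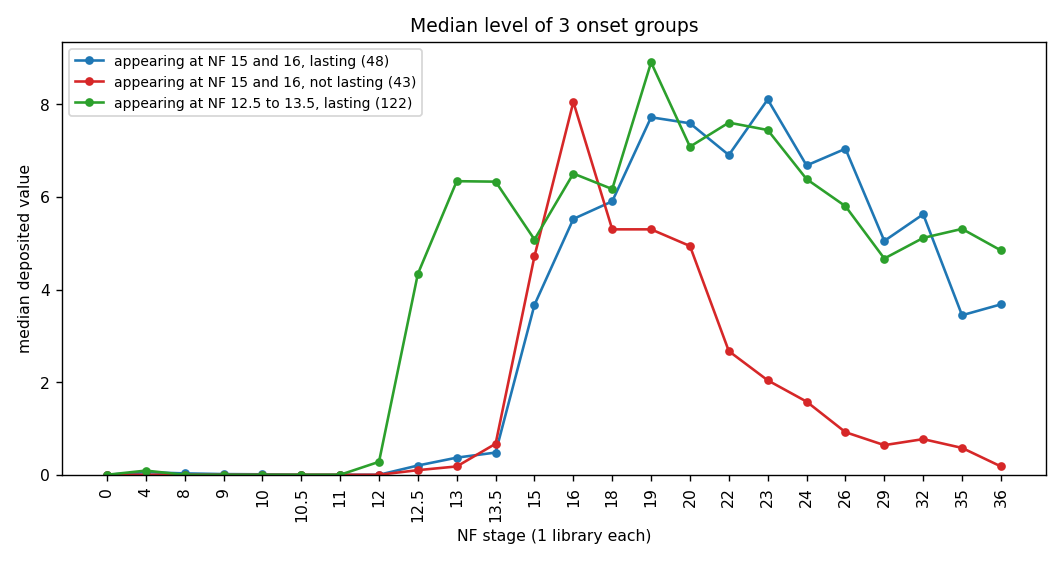
Median deposited value by NF stage for 48 components that appeared at NF 15 and 16 and lasted (blue), 43 with the same onset that did not last (red) and 122 that appeared at NF 12.5 to 13.5 and lasted (green). At NF 23 the medians are 8.11 in blue, 2.04 in red and 7.45 in green.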

How the data were processed

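Libraries were made from ribosomal-RNA-depleted total RNA, per the labels' protocols. Tools named in the submitters' processing notes are Bowtie, RSEM, Trimmomatic and CASAVA 1.8.2, with no roles stated. The deposited table holds a signal per component and library, treated here as an abundance normalized before deposit. Its scale, the assembler and any scaling between libraries are not given in the sources used here. Only 0.458% of the deposited values above 0 are whole numbers. The labels gave a stage for each of the 24 columns.

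For tests, libraries were scaled by the median of ratios over 15471 components above 0 everywhere (factors 0.612 to 1.42). limma 3.58.1 (R 4.3.3) used a mean-variance trend and robust variances on log2(scaled value + 1), with Benjamini-Hochberg adjustment over all 41376 components tested, threshold 0.05; fold changes on this scale understate those of low components. Both models were tested on simulated data. Relative depth came from modal ratios of values between 0.15 and 0.6; all 276 library pairs lay within 0.1 (log2) of the fit. Library sets were split at the widest gap of the first principal component (33.7% of variance) of residuals about a spline with 4 degrees of freedom. That gap, 3.00, was only slightly wider than the next, 2.67.

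The members and comparison groups were chosen with earlier results of these data known. The components printed by identifier are the top 2 and bottom 2 members by log2 change in early tailbud against late neurula; the rule asked first for members past the threshold, and none passed. Since a stage has 1 library, p-values measure scatter between stages. Scalings, pseudocount, filters, library sets, window edge, single libraries and the limits of the choice were varied.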

Additional observations from a re-analysis of the deposited data

How the results depend on the processing

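Which components count as members depends on the limits and on the scale. The rule found 11 with an early limit of 0.5, 182 with 2, 158 with an onset minimum of 2, 9 with 5, 91 without the lasting limit and 107 on scaled values, of which 30 were among the 48. In early tailbud against late neurula the members called were 3 with the library set as a term, 5 with NF 22 counted as late neurula and 0 to 4 with single libraries left out. The median change of the members was -0.28 on values as deposited, where the median of all components was 0.14, and -0.55 to -0.37 with single libraries left out. All components called were 62, and 5 with the trimmed mean, 37 with a pseudocount of 0.5, 0 with no filter, with a minimum of 5 and in the larger set alone, 398 with the set term, 1122 with the moved edge and 0 to 1072 with single libraries left out. For the trend, members called were 15, and 9 with column totals, 5 without a filter, 3 in the larger set alone and 6 to 14 with single libraries left out; all components called were 5506, and 2328 with no filter, 2991 with a minimum of 5, 1991 in the larger set and 2616 to 4997 with single libraries left out. The change of comp269436_c0 reversed to -0.0789 with the moved edge, and its slope ran from -0.0544 (without NF 18) to 0.18 with single libraries left out. The causes were not tested. Filters change which components are tested, while fits with a library left out tested the same 41376 components over fewer libraries. Depth limits values near 1. No paired analysis was possible because no stage has a second library.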
